A study of Mus musculus with 24 samples.

Results

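The healthy baseline of mouse skeletal muscle was compared between 2 recombinant backgrounds, in wild type (WT) mice of the background that the study's design names BXD-87 and of the one it names BXD-67. BXD strains are inbred mosaics of the genomes of C57BL/6J (B6) and DBA/2J (D2), so that at each place in the genome an inbred BXD animal carries the B6 or the D2 copy. The 87 WT group held libraries 13, 14 and 15 and the 67 WT group libraries 7, 8 and 9, which are 6 of the 24 libraries of the series and were chosen by their labels alone. Every library was made from the snap-frozen left quadriceps of a mouse killed at 25 weeks, and the 6 mice were labelled healthy, with no treatment given in the labels. The labels also give these WT mice a strain name of the CMD colony (CMD-87 and CMD-67), and how WT mice were bred within those colonies is not stated in the sources used here. The rest of the series held WT mice of B6 and D2 and mice with the Lama2-CMD mutation on all 4 backgrounds, 3 mice a group. That mutation affects laminin alpha 2, a chain of the basement membrane around muscle fibres. The labels do not say which allele was used. Mice with it are called CMD below.

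A comparison of healthy BXD backgrounds asks which transcripts differ with the mix of parental alleles before any disease is present. Parental alleles can differ in copy number, in regulatory sequence or in splice sites, and a difference of this kind can be seen in an expression profile as a gene whose level is like that of one parent. Quadriceps is mostly made of fast fibres, with connective tissue, vessels, nerve and resident immune cells between them. In bulk tissue, fewer cells of a type and less RNA per cell cannot be told apart.

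Total exon reads ran from 39272150 to 51715975 in the 6 libraries, and between 15567 and 16038 genes were detected in each. Each group held 1 mouse labelled male (87 WT library 13 and 67 WT library 7) and 2 labelled female, and reads of Y-linked genes matched the label in all 6. Levels are given as CPM, counts scaled to the size of the library. Markers of skeletal muscle summed to 141200, 142700 and 152100 CPM in 87 WT, against 162700, 160100 and 175500 CPM in 67 WT. On principal components of the 9 WT libraries of 87, 67 and B6, the first (29.4% of the variance) had the males at its low end. On the second (17.8%) the groups overlapped, with 87 WT at -12.5, 22.4 and 11.5, against 8.19, 27.4 and 17.5 for 67 WT. The third (12.7%) held 87 WT at -18.2, -32.8 and -18.8, against 23.4, 23.1 and 7.42 for 67 WT. Across genes, libraries of the same group correlated with Pearson r of 0.967 to 0.983 and libraries of different groups with 0.961 to 0.982, ranges that overlapped.

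**Figure D1:**
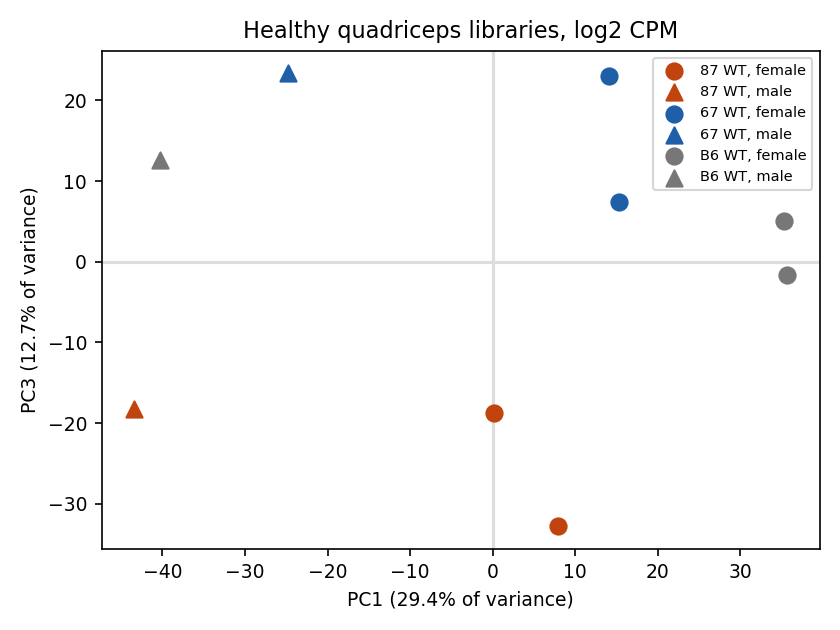
Principal components 1 and 3 of log2 CPM in the WT libraries of 87, 67 and B6, with the share of variance on each axis, circles for females and triangles for males as labelled. The 87 WT libraries lie below 0 on component 3 and the 67 WT libraries lie above it.

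Of 13763 genes tested, 26 passed the threshold of an adjusted p of 0.05 (0.189%) in edgeR's quasi-likelihood test with sex as a covariate, 17 of them higher in 87 WT (0.124%) and 9 lower (0.0654%). An unadjusted p under 0.05 was reached by 1381 genes. In all 26 genes the 3 libraries of 87 WT lay on one side of the 3 libraries of 67 WT (wholly above in 6.85% of all genes tested, wholly below in 7.10%). The genes were called on these same libraries, so their separation largely follows from the call and adds no support to it. DESeq2 on the same libraries called 164 genes (1.22%), 114 higher (0.845%) and 50 lower (0.370%), and these included all 26. The edgeR count depended on single libraries. It was 1 without 67 WT library 7, 5 without library 8 and 8 without library 9, 2 without 87 WT library 13, 10 without library 14 and 16 without library 15, and 7 without B6 WT library 2. The median log2 fold change over all genes was -0.006, with 49.0% of genes above 0.

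**Figure D2:**
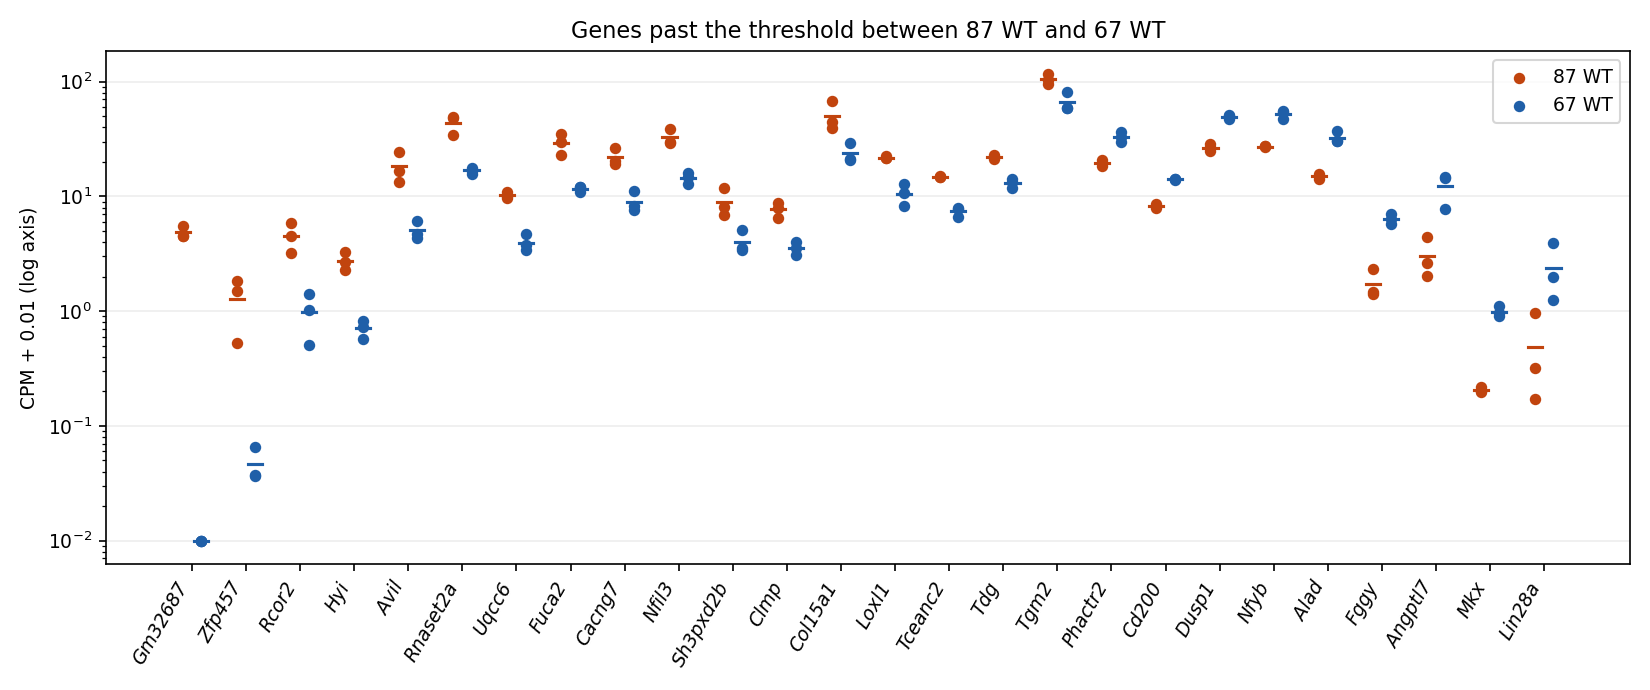
Level of each of the 26 genes past the threshold, as CPM + 0.01 on a log axis, in order of log2 fold change from left to right. Points are libraries and bars are means of 3. The 87 WT points of every gene lie wholly above or wholly below its 67 WT points, which largely follows from the choice of genes.

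Chromosomes 4 and 10 held 7 of the 26 genes each. Together these chromosomes carry 14 of the 26 (53.8%), while they carry 1512 of the 13738 tested genes with a known chromosome. Of the genes that DESeq2 called, 33 of 164 lay on these chromosomes. Chromosome 10 had the highest share called by edgeR (1.05% of its genes), with chromosome 4 at 0.829%, and chromosome 13 had the highest share called by DESeq2 (2.99%). No gene of chromosome X was called by either tool. These shares are a description, since neighbouring genes are not independent of each other.

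**Figure D3:**
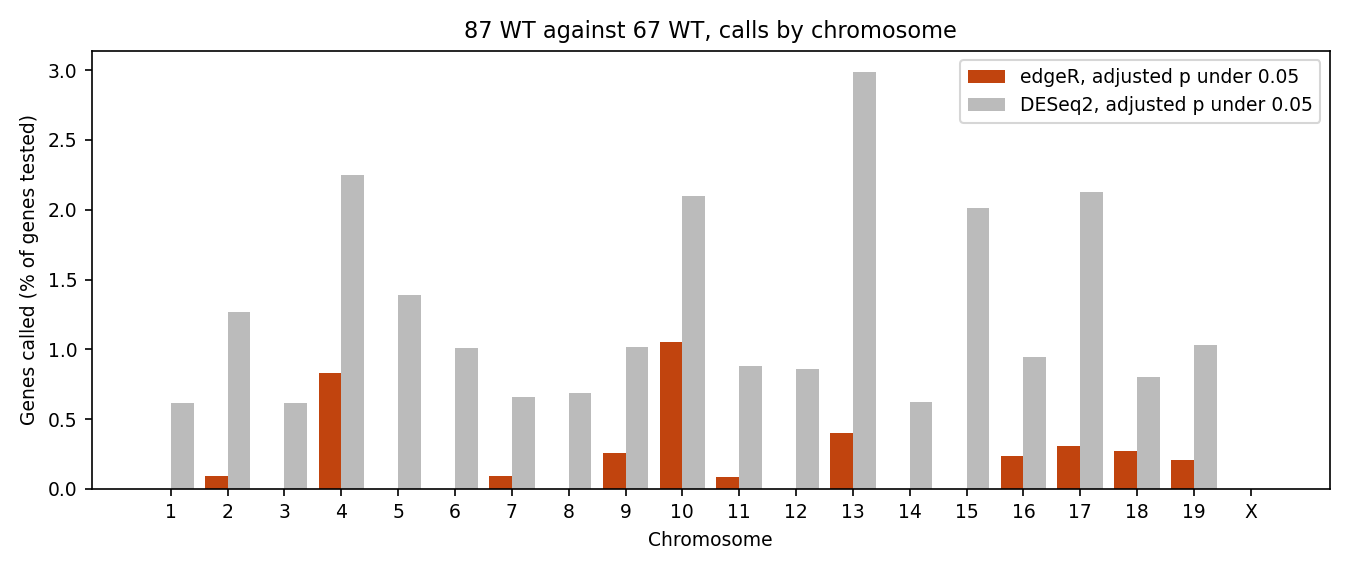
Share of tested genes called between 87 WT and 67 WT on each chromosome, by edgeR and by DESeq2, as a percentage of the genes that edgeR tested there. The tallest edgeR bars are chromosome 10 (1.05%) and chromosome 4 (0.829%), and the tallest DESeq2 bar is chromosome 13 (2.99%).

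On chromosome 10 the called genes lay in neighbouring sets. Phactr2 and Fuca2 are next to each other, with 0 tested genes between them. Further along, Gm32687, Uqcc6, Tdg and Nfyb follow each other with 6 tested genes between the first pair, 0 between Uqcc6 and Tdg and 2 between Tdg and Nfyb. Avil, the last of the 7, is separated from Nfyb by 156 tested genes. The promoters of 5 of these neighbours are shown because genes of both sets moved in opposite directions side by side and because Nfyb encodes a subunit of NF-Y, the factor that binds the CCAAT box. The sequences are RefSeq's, from 250 bases before to 50 after the gene's start in GRCm38.p6, an earlier build than that of the counts. Capitals mark CCAAT or its reverse complement ATTGG.
Phactr2 promoter, chr10:13324240-13324539, minus strand: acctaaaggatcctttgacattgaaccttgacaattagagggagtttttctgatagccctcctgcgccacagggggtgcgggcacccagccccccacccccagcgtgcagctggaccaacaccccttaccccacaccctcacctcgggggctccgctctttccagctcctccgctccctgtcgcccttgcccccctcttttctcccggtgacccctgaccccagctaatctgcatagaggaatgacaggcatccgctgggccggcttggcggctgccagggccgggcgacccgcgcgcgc
Fuca2 promoter, chr10:13500778-13501077, plus strand: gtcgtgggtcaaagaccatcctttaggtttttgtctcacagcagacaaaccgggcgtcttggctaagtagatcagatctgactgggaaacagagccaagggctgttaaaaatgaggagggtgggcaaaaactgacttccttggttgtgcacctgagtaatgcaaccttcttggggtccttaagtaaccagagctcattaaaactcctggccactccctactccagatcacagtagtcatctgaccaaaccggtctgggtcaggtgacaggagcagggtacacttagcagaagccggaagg
Gm32687 promoter, chr10:81863641-81863940, plus strand: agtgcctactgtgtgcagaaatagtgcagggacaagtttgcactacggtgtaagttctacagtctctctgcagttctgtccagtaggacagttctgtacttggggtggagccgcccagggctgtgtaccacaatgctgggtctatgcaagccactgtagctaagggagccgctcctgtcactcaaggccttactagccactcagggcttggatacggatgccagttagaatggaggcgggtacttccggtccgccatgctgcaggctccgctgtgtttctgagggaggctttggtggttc
Tdg promoter, chr10:82629588-82629887, plus strand: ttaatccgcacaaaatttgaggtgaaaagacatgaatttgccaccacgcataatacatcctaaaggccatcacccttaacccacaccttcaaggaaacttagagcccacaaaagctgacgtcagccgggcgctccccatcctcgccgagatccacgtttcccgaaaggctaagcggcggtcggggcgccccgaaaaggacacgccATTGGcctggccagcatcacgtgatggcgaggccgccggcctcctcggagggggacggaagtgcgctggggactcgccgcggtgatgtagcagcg
Nfyb promoter, chr10:82764092-82764391, minus strand: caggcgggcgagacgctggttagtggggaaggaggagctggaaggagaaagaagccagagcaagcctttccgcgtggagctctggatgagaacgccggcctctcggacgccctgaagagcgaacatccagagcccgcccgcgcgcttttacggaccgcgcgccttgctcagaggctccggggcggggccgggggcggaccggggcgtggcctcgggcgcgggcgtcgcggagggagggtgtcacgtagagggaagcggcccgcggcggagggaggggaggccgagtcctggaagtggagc
Of the 5 windows, that of Tdg held 1 match and the others 0. Over 20 called genes with an entry in the RefSeq table (Mkx was not looked up), 8 of 23 windows (34.8%) held the motif on either strand, against 37.4% of all 32851 windows. A match describes these letters and says nothing of NF-Y binding.

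Gm32687 (ENSMUSG00000112640), a predicted protein-coding gene with no assigned function in the files, was detected in 87 WT and not in 67 WT. It had 4.48, 5.56 and 4.50 CPM in the 87 WT libraries and 0 reads in each 67 WT library. Over the group these were 610 reads against 0, at least 176-fold higher in 87 WT if 67 WT is set to a floor of 3 reads summed over its libraries (edgeR adjusted p = 0.000528). It passed the threshold with each of the 9 libraries left out. D2 WT libraries also had 0 reads, and B6 WT libraries had 5.24, 4.96 and 4.43 CPM, so that by these counts 87 WT was like B6 and 67 WT was like D2. Here and in the genes below, whether reads of D2 alleles were lost in mapping to the genome build was not tested. Gm32687 falls outside the naming rule and was chosen after its values were seen.

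The neighbours Uqcc6 and Tdg followed the same split. Uqcc6, an assembly factor of respiratory complex III, had 9.63, 10.8 and 10.1 CPM in 87 WT, against 3.41, 3.73 and 4.71 CPM in 67 WT (ENSMUSG00000063320, log2 fold change 1.37 ± 0.14 SE, adjusted p = 0.0127). Tdg, the thymine DNA glycosylase that also removes oxidised methylcytosines, had 21.1, 22.9 and 21.9 CPM in 87 WT, against 11.8, 13.2 and 14.2 CPM in 67 WT (ENSMUSG00000034674, log2 fold change 0.75 ± 0.10 SE, adjusted p = 0.0273). For both genes D2 WT libraries lay near 67 WT and B6 WT libraries near 87 WT. The D2 values were 3.89, 4.37 and 4.83 CPM for Uqcc6 and 13.5, 13.6 and 11.8 CPM for Tdg, and the B6 values were 9.91, 10.4 and 10.3 CPM and 20.6, 22.4 and 23.1 CPM. Nfyb fell to 26.8, 27.4 and 27.4 CPM in 87 WT, against 54.1, 47.4 and 55.8 CPM in 67 WT (ENSMUSG00000020248, log2 fold change -0.94 ± 0.10 SE, adjusted p = 0.0142). The 87 WT values of Nfyb matched B6 WT (28.7, 26.2 and 24.7 CPM), and the 67 WT values were above those of D2 WT as well (37.4, 35.1 and 35.0 CPM).

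Phactr2 and Fuca2 showed the converse split, with 87 WT like D2. Fuca2, a secreted alpha-L-fucosidase, had 30.0, 22.9 and 34.9 CPM in 87 WT, against 12.1, 12.1 and 10.96 CPM in 67 WT (ENSMUSG00000019810, log2 fold change 1.32 ± 0.16 SE, adjusted p = 0.0210). D2 WT had 32.6, 35.6 and 33.4 CPM and B6 WT 13, 12.1 and 13.6 CPM. Phactr2, a regulator of actin and of protein phosphatase 1, had 19.6, 20.8 and 18.4 CPM in 87 WT, against 36.2, 29.7 and 32.8 CPM in 67 WT (ENSMUSG00000062866, log2 fold change -0.75 ± 0.11 SE, adjusted p = 0.0431), with 24.2, 22.6 and 25.2 CPM in D2 WT and 32.4, 34.0 and 37.2 CPM in B6 WT. Phactr2 passed the threshold in none of the fits that left out 1 library. Avil, which encodes the actin-severing protein advillin of sensory neurons, rose to 24.5, 16.8 and 13.5 CPM in 87 WT, against 4.37, 4.68 and 6.12 CPM in 67 WT (ENSMUSG00000025432, log2 fold change 1.82 ± 0.22 SE, adjusted p = 0.0210). Its parental difference did not pass the threshold (D2 over B6 log2 fold change -0.42, adjusted p = 0.479).

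**Figure D4:**
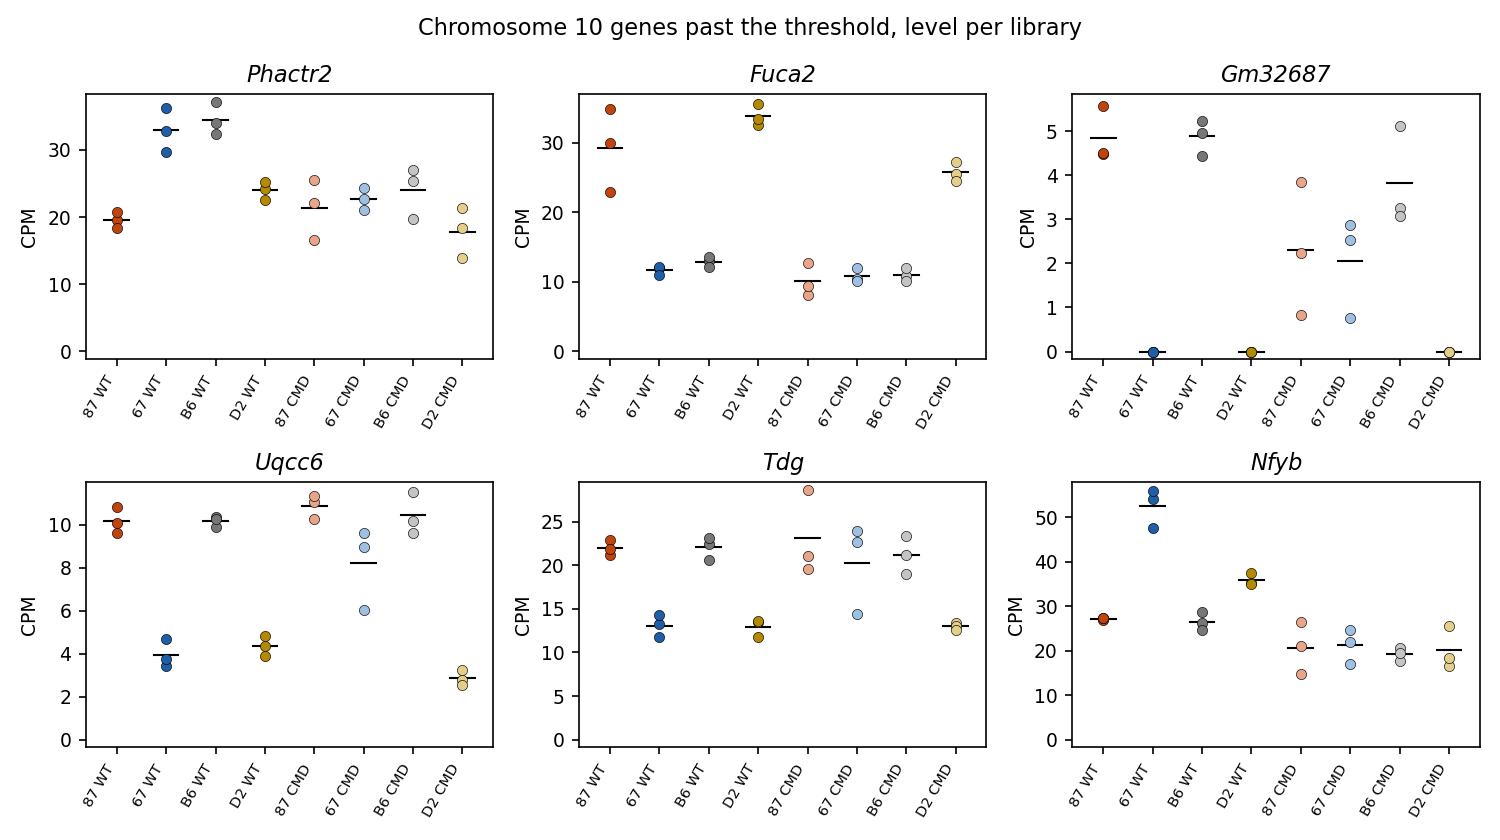
CPM per library of 6 chromosome 10 genes in the WT and CMD groups of the 4 backgrounds, with bars at the mean of 3. In Gm32687, Uqcc6 and Tdg the 67 WT and D2 WT libraries are low and the 87 WT and B6 WT libraries high, whereas in Fuca2 the 87 WT and D2 WT libraries are high.

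Chromosome 4 held genes of intermediary metabolism, matrix and transcription, with 40 to 174 tested genes between neighbours. Alad, the second enzyme of haem synthesis, of which DBA/2J is known to carry extra copies, had 14.3, 15.8 and 15.04 CPM in 87 WT, against 30.1, 36.9 and 30.6 CPM in 67 WT (ENSMUSG00000028393, log2 fold change -1.11 ± 0.15 SE, adjusted p = 0.0317). D2 WT had 55.6, 54.2 and 51.2 CPM and B6 WT 15.9, 11.96 and 17.3 CPM, so that 67 WT lay between its parents and 87 WT at the B6 level. Fggy, a carbohydrate kinase, had 2.33, 1.40 and 1.46 CPM in 87 WT, against 6.96, 5.77 and 6.31 CPM in 67 WT (ENSMUSG00000028573, log2 fold change -1.90 ± 0.18 SE, adjusted p = 0.0112). The 67 WT libraries were at the B6 WT level (8.03, 5.32 and 6.87 CPM), and the 87 WT libraries lay between it and D2 WT (0.200, 0.0724 and 0.0208 CPM).

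Tceanc2, a protein with a domain of the transcription elongation factor TFIIS, had 15.1, 14.8 and 14.8 CPM in 87 WT, against 7.82, 6.55 and 7.89 CPM in 67 WT (ENSMUSG00000028619, log2 fold change 1.01 ± 0.12 SE, adjusted p = 0.0218). Again 87 WT was at the B6 WT level (15.3, 16.7 and 18.1 CPM), and 67 WT lay between it and D2 WT (0.756, 0.676 and 0.811 CPM). Hyi, a hydroxypyruvate isomerase, had 2.67, 3.24 and 2.29 CPM in 87 WT, against 0.720, 0.557 and 0.816 CPM in 67 WT (ENSMUSG00000006395, log2 fold change 1.97 ± 0.30 SE, adjusted p = 0.0431), and passed in none of the fits that left out 1 library. Angptl7, a secreted protein of the angiopoietin-like family, fell to 4.38, 2 and 2.62 CPM in 87 WT, against 14.7, 14.5 and 7.78 CPM in 67 WT (ENSMUSG00000028989, log2 fold change -2.09 ± 0.26 SE, adjusted p = 0.0259). The RNA-binding protein gene Lin28a, which blocks maturation of let-7 microRNAs, had 0.953, 0.162 and 0.312 CPM in 87 WT, against 3.89, 1.25 and 1.96 CPM in 67 WT (ENSMUSG00000050966, log2 fold change -2.46 ± 0.37 SE, adjusted p = 0.0431). Both parents had low Lin28a, at 0.534, 0.410 and 0.562 CPM in D2 WT and 0.705, 0.179 and 0.130 CPM in B6 WT, and it too passed in none of those fits.

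The parents were compared on their own, D2 WT against B6 WT, where 975 of 13572 genes passed (7.18%). Of the 26 genes 15 were among these (57.7%), and of the 164 genes called by DESeq2 the share was 55 of 163 (33.7%). The nearer parent of each group mean was read on a log2 scale (CPM plus 0.1). In 7 of the 15 genes the 87 WT mean was nearer to B6 WT and the 67 WT mean nearer to D2 WT, namely Gm32687, Uqcc6, Nfyb, Dusp1, Tdg, Alad and Cacng7. In 6 the 87 WT mean was nearer to D2 WT and the 67 WT mean nearer to B6 WT, namely Rnaset2a, Fuca2, Rcor2, Zfp457, Phactr2 and Hyi. In Fggy and Tceanc2 both were nearer to B6 WT. The nearer parent of 1 group changed in 4 genes when unlogged CPM was used, a scale chosen after these values were seen. There the 87 WT mean of Fggy and the 67 WT mean of Tceanc2 were nearer to D2 WT, and the 67 WT mean of Alad and the 87 WT mean of Hyi were nearer to B6 WT. The 87 and 67 libraries are no part of the parental comparison, but B6 WT libraries entered the estimate of the spread in both. Sex labels and Y-linked reads disagreed in 4 D2 libraries. Among D2 CMD mice, 2 with a female label (22 and 24) had 4927 and 4858 such reads, and among D2 WT mice 2 with a male label (19 and 21) had 1 and 0. Mymk, a fusion factor of regenerating muscle, had 4.26, 31.8 and 15.4 CPM in the libraries labelled D2 CMD, against 0.0222, 0.145 and 0.333 CPM in those labelled D2 WT. How the sex labels came to differ was not tested. With sex as labelled the parental count was 637.

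Several called genes act in or on the extracellular matrix, and 4 of them were higher in 87 WT. Loxl1, which crosslinks elastin, had 21.5, 22.4 and 21.6 CPM in 87 WT, against 12.7, 8.22 and 10.8 CPM in 67 WT (ENSMUSG00000032334, log2 fold change 1.07 ± 0.15 SE, adjusted p = 0.0320). Col15a1, the basement membrane zone collagen XV, had 68.3, 39.7 and 44.1 CPM in 87 WT, against 29.3, 21.3 and 20.8 CPM in 67 WT (ENSMUSG00000028339, log2 fold change 1.08 ± 0.14 SE, adjusted p = 0.0288). Neither gene differed past the threshold between the parents, with D2 over B6 log2 fold changes of 0.06 (adjusted p = 0.872) and 0.09 (adjusted p = 0.786). Tgm2, a transglutaminase that crosslinks proteins, had 116, 103 and 95.3 CPM in 87 WT, against 80.8, 59.2 and 58.7 CPM in 67 WT (ENSMUSG00000037820, log2 fold change 0.68 ± 0.09 SE, adjusted p = 0.0275). Sh3pxd2b, a podosome scaffold protein, had 11.8, 6.89 and 8.12 CPM in 87 WT, against 5.04, 3.54 and 3.40 CPM in 67 WT (ENSMUSG00000040711, log2 fold change 1.16 ± 0.16 SE, adjusted p = 0.0320). In Col15a1, Tgm2 and Sh3pxd2b the male library of each group was the highest of its group.

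The lists of matrix genes give the setting of these calls. Of 25 fibrillar matrix genes edgeR called 1 higher (Loxl1), where it called 0.124% of all genes higher. The 25 genes summed to 2044, 1442 and 1383 CPM in 87 WT, against 1669, 1149 and 1168 CPM in 67 WT. These sums overlapped, with the male library the highest of each group. Of the 25 genes 20 were above 0, with a median log2 fold change of 0.35, where the median of all genes was -0.006. DESeq2 called 6 of them higher, Loxl1, Col5a3, Fbn1, Col5a1, Col6a3 and Col6a2, and 1 lower, Col12a1, where it called 0.845% of all genes higher and 0.370% lower. Col5a3, a collagen V chain, had 92.7, 53.0 and 43.7 CPM in 87 WT, against 29.1, 17.6 and 22.6 CPM in 67 WT, and the microfibril gene Fbn1 had 51.8, 32.3 and 37.1 CPM in 87 WT, against 31.8, 14.5 and 20.6 CPM in 67 WT. Their edgeR adjusted p were 0.0539 and 0.115. The main fibrillar collagens had log2 fold changes of 0.22 (Col1a1), -0.13 (Col1a2) and 0.55 (Col3a1), and passed by neither tool.

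Of 14 basement membrane genes edgeR called 1 higher (Col15a1), where it called 0.124% of all genes higher. Of the 14 genes 13 were above 0, with a median of 0.18. DESeq2 called 4 of them higher (0.845% of all genes), Col15a1, Col18a1, Col4a1 and Col4a2. The collagen IV chains Col4a1 and Col4a2 are a pair transcribed from a shared promoter. Col4a1 had 198, 117 and 138 CPM in 87 WT, against 92.4, 86.4 and 85.3 CPM in 67 WT, and Col4a2 had 159, 100.5 and 105 CPM, against 83.6, 68.4 and 67.8 CPM. The laminin chains had log2 fold changes between 0.05 (Lama4) and 0.27 (Lamb1), and none was called by either tool. Markers of fibro-adipogenic progenitors and fibroblasts had 0 of 14 called by edgeR and a median of 0.23, with 13 above 0. DESeq2 called 2 of them higher (0.845% of all genes), Mfap5 and Dpt, with log2 fold changes of 0.67 and 0.64 in the edgeR fit. The 14 markers summed to 1882, 1572 and 1340 CPM in 87 WT, against 1907, 1465 and 1197 CPM in 67 WT, so their summed level overlapped between the groups, and their part in the matrix result was not tested. Of 15 TGF-beta pathway genes 0 were called by edgeR, while DESeq2 called 3 higher (0.845% of all genes), the signal transducer Smad3, the ligand Tgfb3 and the latent-complex protein Ltbp3. Smad3 had 165, 122 and 121 CPM in 87 WT, against 85.2, 62.5 and 85.9 CPM in 67 WT (edgeR adjusted p = 0.204).

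The tendon markers held a called gene that was lower in 87 WT. Mkx, the transcription factor Mohawk of tendon cells, was low in both backgrounds, with 0.191, 0.189 and 0.208 CPM in 87 WT, against 1.09, 0.892 and 0.952 CPM in 67 WT (ENSMUSG00000061013, log2 fold change -2.29 ± 0.34 SE, adjusted p = 0.0431). It was the 1 called gene of 10 tendon and cartilage markers, where edgeR called 0.0654% of all genes lower. Of these markers 9 were below 0, with a median of -0.60. Mkx passed in none of the fits that left out 1 library. DESeq2 also called Kera, the proteoglycan keratocan, lower, where it called 0.370% of all genes lower. The summed level of these markers was 65.3, 105 and 82.9 CPM in 87 WT, against 97.8, 173 and 129 CPM in 67 WT. The 87 WT library 14 lay above 67 WT library 7, so the sums overlapped. How much tendon each sample held, and its part in the Mkx value, was not tested.

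Regulators of transcription and signalling made up another set. Nfil3, a repressor in the output of the circadian clock, had 38.6, 30.0 and 29.4 CPM in 87 WT, against 12.8, 16.03 and 14.7 CPM in 67 WT (ENSMUSG00000056749, log2 fold change 1.17 ± 0.16 SE, adjusted p = 0.0320). Dusp1, an immediate early phosphatase that switches off MAP kinases, fell to 26.9, 24.7 and 28.3 CPM in 87 WT, against 51.0, 50.3 and 47.2 CPM in 67 WT (ENSMUSG00000024190, log2 fold change -0.89 ± 0.10 SE, adjusted p = 0.0210). Rcor2, a corepressor of the CoREST family, had 5.81, 3.21 and 4.52 CPM in 87 WT, against 1.41, 0.502 and 1.01 CPM in 67 WT (ENSMUSG00000024968, log2 fold change 2.23 ± 0.30 SE, adjusted p = 0.0317). For Rcor2 the 87 WT libraries were near D2 WT (6.14, 3.79 and 5.74 CPM), and the 67 WT libraries were near B6 WT (0.907, 0.867 and 0.778 CPM). Zfp457, a zinc finger gene of a large family with near-identical members whose reads can be misassigned, had 1.48, 0.513 and 1.81 CPM in 87 WT, against 0.0267, 0.0558 and 0.0272 CPM in 67 WT (ENSMUSG00000055341, log2 fold change 5.02 ± 0.72 SE, adjusted p = 0.0339).

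Clock genes were read with Nfil3 because their level moves with the time of day, which is not given in the sources used here. Of 18 clock genes 1 was called by edgeR (Nfil3, higher), where it called 0.124% of all genes higher. DESeq2 called 3 higher (Nfil3, Bmal1 and Nr1d1) and 1 lower (Bhlhe41), where it called 0.845% of all genes higher and 0.370% lower. The groups did not overlap in 10 of the 18, 5 higher and 5 lower in 87 WT, where 6.85% of all genes were wholly higher and 7.10% wholly lower. Bmal1, which drives the clock with Clock, had 28.3, 24.1 and 20.5 CPM in 87 WT, against 9.71, 10.04 and 15.3 CPM in 67 WT. Nr1d1, the repressor of Bmal1, had 192, 198 and 199.8 CPM in 87 WT, against 143, 118 and 107 CPM in 67 WT. The list had a median of -0.04, and the part of the hour of collection was not tested. Dusp1 is not on the immediate early and heat shock list, which had 0 of 14 genes called and a median of -0.04.

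Membrane and enzyme genes completed the set. Cacng7, a transmembrane subunit of the calcium channel and AMPA receptor regulator family, had 19.2, 26.5 and 20.5 CPM in 87 WT, against 11.2, 8.17 and 7.59 CPM in 67 WT (ENSMUSG00000069806, log2 fold change 1.31 ± 0.19 SE, adjusted p = 0.0339), with 5.67, 4.90 and 4.16 CPM in D2 WT and 28.4, 31.4 and 23.4 CPM in B6 WT. Clmp, an adhesion molecule of the immunoglobulin superfamily, had 8.72, 7.97 and 6.52 CPM in 87 WT, against 4.03, 3.51 and 3.07 CPM in 67 WT (ENSMUSG00000032024, log2 fold change 1.13 ± 0.16 SE, adjusted p = 0.0320). Cd200, a surface ligand that restrains myeloid cells, fell to 7.96, 8.18 and 8.54 CPM in 87 WT, against 13.8, 14.2 and 14.2 CPM in 67 WT (ENSMUSG00000022661, log2 fold change -0.77 ± 0.12 SE, adjusted p = 0.0466). It passed in none of the fits that left out 1 library. Rnaset2a, a lysosomal ribonuclease, had 48.9, 48.3 and 34.4 CPM in 87 WT, against 17.8, 16.8 and 15.8 CPM in 67 WT (ENSMUSG00000095687, log2 fold change 1.38 ± 0.15 SE, adjusted p = 0.0146). It has a near-identical copy, Rnaset2b, and with unique reads only its log2 fold change was 0.45 with an adjusted p of 0.678, so the call rests on reads that match more than 1 place. Outside chromosomes 4 and 10, the other 12 called genes lay on chromosomes 2 (Tgm2), 7 (Cacng7), 9 (Clmp and Loxl1), 11 (Sh3pxd2b), 13 (Nfil3 and Zfp457), 16 (Cd200), 17 (Rnaset2a and Dusp1), 18 (Mkx) and 19 (Rcor2). Tgm2, Clmp, Zfp457, Lin28a and Hyi fall outside the naming rule and were chosen after their values were seen.

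The lists of fibre type, glycolysis and oxidative phosphorylation genes held no gene called by either tool. Since edgeR called 0.189% of all genes and DESeq2 1.22%, lists of this size are likely to hold 0 called genes. In the edgeR fit 49.0% of all genes were above 0. Of 15 fast fibre genes 0 were called by either tool, and 12 were below 0 with a median of -0.18. Their summed level was 194800, 213600 and 206200 CPM in 87 WT, against 232400, 239700 and 237200 CPM in 67 WT, groups that did not overlap. The fast myosin genes had log2 fold changes of -0.37 for Myh4 (adjusted p = 0.556), 1.02 for Myh1 (adjusted p = 0.747) and -0.89 for Myh2 (adjusted p = 0.847). The slow fibre genes had 0 of 14 called and a median of -0.94. That median was 0.07 without 67 WT library 7, and the summed slow fibre level was 73.8, 70.9 and 60.9 CPM in 87 WT, against 68.1, 50.8 and 76.0 CPM in 67 WT. Of 20 glycolysis and glycogen genes 0 were called and 16 were below 0 (median -0.19), and 8 had 87 WT libraries wholly below those of 67 WT, where 7.10% of all genes did. Of 22 nuclear oxidative phosphorylation genes 0 were called and 20 were below 0 (median -0.19).

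**Figure D5:**
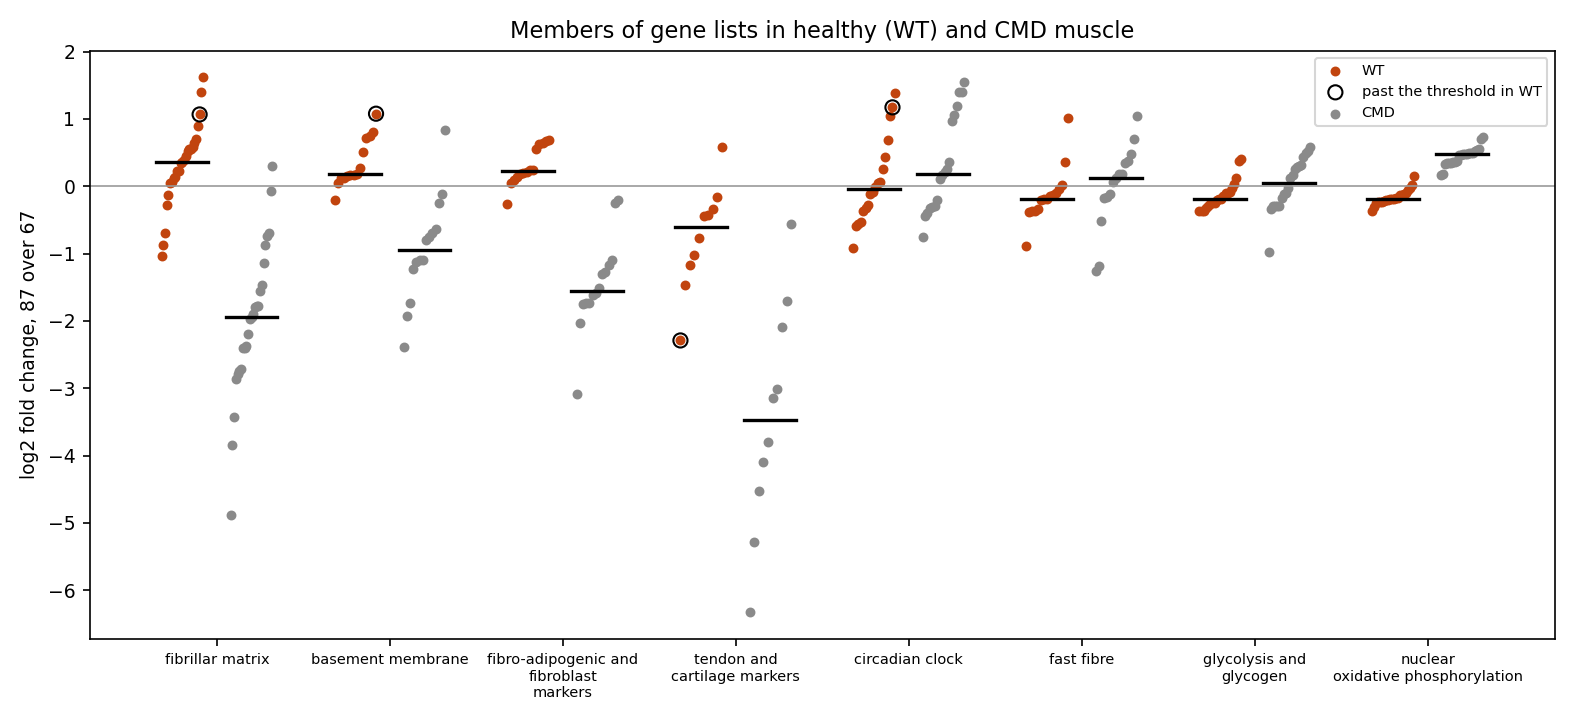
Log2 fold change of 87 over 67 for each tested member of 8 gene lists, in WT mice (left of each pair) and in CMD mice (right), with a bar at the median and rings around genes past the threshold in WT. The fibrillar matrix median is 0.35 in WT and -1.94 in CMD, and the fast fibre medians are -0.18 and 0.12.

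In edgeR the lists of cell type markers held 1 called gene, Mkx, and DESeq2 called Mkx, Kera, Mfap5 and Dpt among them. Of all genes edgeR called 0.189% and DESeq2 1.22%. Of 18 macrophage markers 17 were above 0 with a median of 0.24, and their sum was 258, 138 and 147 CPM in 87 WT, against 179, 138 and 109 CPM in 67 WT. Of 13 antigen presentation genes 11 were above 0 with a median of 0.36. Adipocyte markers summed to 1631, 218 and 358 CPM in 87 WT, against 514, 400.2 and 387 CPM in 67 WT, so that the male 87 WT library 13 stood above the other 5. The list's median was 0.43, and over the fits that left out 1 library it ran from -0.25 to 0.95. None of the 26 genes is on the adipocyte list. Endothelial, smooth muscle and pericyte, Schwann cell, lymphocyte and blood cell lists had 0 genes called each.

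The genes at the centre of the disease model were also read. Lama2 (ENSMUSG00000019899), which lies on chromosome 10, had 35.8, 27.5 and 27.4 CPM in 87 WT, against 28.4, 28.0 and 24.3 CPM in 67 WT (log2 fold change 0.16 ± 0.15 SE, adjusted p = 0.768). Ltbp4, a known modifier of muscular dystrophy that binds latent TGF-beta, had 46.7, 79.4 and 71.5 CPM in 87 WT, against 51.0, 61.3 and 54.7 CPM in 67 WT (log2 fold change 0.20, adjusted p = 0.733). Anxa6, a membrane repair protein, had 288, 254 and 229.7 CPM in 87 WT, against 285, 225 and 230.3 CPM in 67 WT (0.06, adjusted p = 0.866). Spp1, which encodes osteopontin, was low in healthy muscle, at 0.334, 0.351 and 0.375 CPM in 87 WT, against 0.0800, 0.418 and 0.190 CPM in 67 WT (0.75, adjusted p = 0.687). None of the 4 differed past the threshold. The dystrophin complex and laminin receptor list had 0 of 21 genes called by edgeR, which called 0.189% of all genes, and a median of 0.04. DESeq2 called Nos1, the neuronal nitric oxide synthase of the complex, higher, where it called 0.845% of all genes higher.

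Genes known to differ between C57BL/6J and DBA/2J were listed to place each background. Of 13 that could be tested 1 passed (Alad, lower), where edgeR called 0.0654% of all genes lower, and the list median was -0.28. Nnt, the mitochondrial transhydrogenase gene that carries a deletion in C57BL/6J, had 2.88, 5.94 and 6.73 CPM in 87 WT, against 17.9, 11.99 and 16.1 CPM in 67 WT (ENSMUSG00000025453, log2 fold change -1.72 ± 0.58 SE, adjusted p = 0.407). D2 WT had 74.2, 40.6 and 98.7 CPM and B6 WT 3.83, 4.78 and 23.5 CPM, where 1 of the 3 B6 libraries stood above the others. These values are those of the entry labelled Nnt_1. Another entry of the gene, Nnt_2 (ENSMUSG00000116207), had a log2 fold change of -1.43 (adjusted p = 0.303 in the same edgeR test). The glyoxalase gene Glo1, the melanosome-associated Gpnmb and the endosomal adaptor Wdfy1 had log2 fold changes of 0.02, 0.18 and -0.11, near 0. Entpd4 (-0.28), Entpd4b (-0.33), Myo5a (-0.46), Gabra2 (-1.02) and Ahr (-0.43) were also tested, and none of these passed. H2-Ea, the class II chain that C57BL/6J does not express, was not tested, since it reached the minimum count in fewer libraries than the filter on low counts requires. It had 30.1, 19.6 and 0 CPM in 87 WT libraries 13, 14 and 15, against 0.0800, 0.0558 and 0 CPM in 67 WT. The 0 in library 15 set that mouse apart from the other 87 WT mice, and 87 CMD libraries showed the same mix (5.27, 12.2 and 0 CPM). Tyrp1, Hc and Klrd1 had at most 8 reads in any of the 6 libraries, and Gpr84 had 0.

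The same strain difference was read in the CMD mice, which share no library with the WT comparison. Sex was not balanced there. The 67 CMD libraries 10, 11 and 12 were all labelled female. In 87 CMD, library 16 was labelled female and libraries 17 and 18 male. The CMD fit had sex as labelled as a covariate, while CPM of single libraries were not adjusted for it. The part of sex in the CMD values was not tested. With the 9 CMD libraries of 87, 67 and B6, edgeR called 0 of 14152 genes (0%), with 3674 at an unadjusted p under 0.05. DESeq2 called 1799 (13.2%), and edgeR with all 24 libraries in the fit called 1423 (9.62%). The 87 CMD library 16 is known from these data to stand apart, and without it edgeR called 0 genes with 744 at an unadjusted p under 0.05. Without it 87 CMD held only males and 67 CMD only females by label. The sex term of that fit then rested on B6 CMD, which held both. Of the 26 genes 25 were tested in CMD, and 17 had the same sign as in WT (68.0%), where 47.0% of all genes did. Without library 16 it was 18 of 25.

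Of the 17 genes 8 also had an unadjusted p under 0.05 in CMD. They were Mkx, Angptl7, Hyi, Rcor2, Fggy, Cd200, Rnaset2a and Phactr2. Hyi had 4.38, 5.93 and 8.19 CPM in 87 CMD, against 1.45, 1.26 and 1.66 CPM in 67 CMD, again with no overlap (log2 fold change 2.02, and 2.73 without library 16). Angptl7 had 1.10, 1.43 and 3.77 CPM in 87 CMD, against 8.94, 3.87 and 10.2 CPM in 67 CMD (-2.68, and -2.57 without library 16). Fggy had 2.54, 6.35 and 6.30 CPM in 87 CMD, against 10.4, 7.96 and 11.6 CPM in 67 CMD (-1.50, and -0.84 without library 16). In these 3 genes the 87 libraries stayed on the same side of the 67 libraries in WT and in CMD.

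Of the 4 matrix genes that were higher in 87 WT, 3 had the opposite sign in CMD. Loxl1, Col15a1 and Sh3pxd2b, all higher in 87 WT, had log2 fold changes of -1.46, -2.39 and -1.01 in CMD, each with an unadjusted p under 0.05. These values came from the fit that held library 16, and those without it are not reported here. Tgm2 kept its sign, at 0.56 in CMD, and was -0.39 without library 16. Loxl1 had 4.98, 8 and 16.5 CPM in 87 CMD, against 24.4, 29.0 and 24.4 CPM in 67 CMD. The fibrillar matrix list had a median of -1.94 in CMD with 24 of 25 genes below 0, and -0.88 without library 16. Basement membrane genes had a median of -0.95 with 13 of 14 below 0, and -0.52 without library 16. Markers of fibroblasts and their progenitors had 14 of 14 below 0 and a median of -1.55, and -0.43 without library 16. Their part in the matrix values was not tested.

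Several chromosome 10 genes also gave other values in CMD. Gm32687, undetected in 67 WT, had 2.88, 0.765 and 2.53 CPM in the 67 CMD libraries, with 0.839, 3.85 and 2.24 CPM in 87 CMD. Uqcc6 and Tdg, low in 67 WT, had 9.64, 6.06 and 8.95 CPM and 23.9, 14.4 and 22.6 CPM in 67 CMD, where 2 of the 3 libraries were near the B6 WT level and library 11 was lower. Fuca2, high in 87 WT, had 8.15, 12.7 and 9.39 CPM in 87 CMD, against 12.03, 10.4 and 10.1 CPM in 67 CMD, all near B6 WT. On chromosome 4, Tceanc2 had 0.773, 11.3 and 6.42 CPM in 67 CMD, a spread wider than that of the 67 WT libraries.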

How the data were processed

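The authors deposited raw counts of reads per gene, as total exon reads, which include reads that match more than 1 place, and as unique exon reads (98.0% to 98.2% of the total in the 6 libraries). The genome build was GRCm39 (mm39), per the submitters' processing notes, and for the aligner and the counter the entry is: not given in the sources used here. RNA came from a TRIzol extraction and a stranded mRNA kit and was read as pairs of 58 bases, per the labels' protocols. The authors' files also hold RPKM and TPM, which were not used. Each file lists 25369 genes, of which 8023 had 0 reads in the 6 libraries.

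Counts of the 9 WT libraries of 87, 67 and B6 were filtered with filterByExpr (minimum count 10, minimum total 15), scaled by TMM and fitted in edgeR 4.0.16 (R 4.3.3) with group and sex as labelled, tested with glmQLFTest and adjusted by the Benjamini-Hochberg method over 13763 genes (threshold 0.05). CPM were scaled with TMM factors of all 24 libraries. P-values set the difference between groups against the spread between mice of a group. That spread was estimated with B6 WT included and moderated with that of other genes. CMD libraries and the parents (without a sex term) were fitted apart. Alternatives included DESeq2 1.42.0. The scripts were tested on simulated data.

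The groups, the 35 gene lists and the tests were chosen with earlier results of these data known. Genes were named if among the 8 most raised or lowered past the threshold with mean log2 CPM of at least 1 and groups apart, the 6 smallest p in each direction, the 2 called members of a list with the largest change, Lama2, Ltbp4, Anxa6, Spp1, and the known parental variants, not all of which are reported here. Of 515 list genes 5 were matched by ID or synonym and 1 was not found. Windows of 10 Mb had been planned for the position of called genes. The reference has another build than the files, so chromosomes and neighbour order were used instead, and RefSeq sequences are given on their own build.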

Additional observations from a re-analysis of the deposited data

Results flagged for a closer look

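For 5 of the 26 genes the difference between 87 and 67 was itself different in WT and in CMD mice, by the interaction term of a fit with the 18 libraries of 87, 67 and B6 (edgeR, adjusted over 14503 genes, of which 282 passed). The fit held the 87 CMD library described above as standing apart, and interaction values without it are not reported here. By label all 67 CMD mice were female, while 87 CMD held both sexes. The part of sex in the interaction values was not tested. The values below are the WT difference minus the CMD difference on the log2 scale.

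Loxl1 had a value of 2.64 (adjusted p = 0.0246) and Sh3pxd2b of 2.31 (adjusted p = 0.00662). Both were higher in 87 than in 67 among WT mice, and among CMD mice their 87 libraries lay wholly below their 67 libraries, with 5.90, 8.12 and 6.91 CPM in 87 CMD, against 11.9, 16.1 and 12.3 CPM in 67 CMD for Sh3pxd2b. The adhesion gene Clmp had 1.65 (adjusted p = 0.0107), with 3.98, 6.68 and 4.18 CPM in 87 CMD, against 5.39, 6.51 and 6.66 CPM in 67 CMD. Fuca2 had 1.46 (adjusted p = 0.0160), with 30.0, 22.9 and 34.9 CPM in 87 WT, 8.15, 12.7 and 9.39 CPM in 87 CMD and 12.03, 10.4 and 10.1 CPM in 67 CMD. Gm32687 had 10.83 (adjusted p = 0.0101), a fitted value that depends on how 0 reads in 67 WT are treated and gives no fold. What the WT and CMD mice of a background differ in beside the mutation was not tested.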

How the results depend on the processing

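No paired analysis was possible because library numbers run from 1 to 24 and no number is shared between groups. Against 26 genes in the reported fit, the count was 15 with no sex term, 8 with all 24 libraries, 10 with these and sex from Y-linked reads (an alternative added after seeing the data), 9 with the 18 libraries of 87, 67 and B6, 9 with only the 6 libraries compared (7 of them among the 26), 1 with females only and 164 with DESeq2. It ran from 1 to 23 when each library was left out. It was 26 with RLE size factors, 28 with unique reads, 38 with no filter and 20 where the absolute log2 fold change also had to reach 1. None of the 26 changed sign under any of these, and Gm32687 passed in each fit that left out 1 library, Fggy in 8 of 9 and Phactr2, Mkx, Lin28a, Hyi and Cd200 in 0. The causes were not tested. In CMD the count was 0, against 11 with no sex term, 1423 with all 24 libraries and 1799 with DESeq2, and for D2 against B6 it was 975, against 637 with sex as labelled. Among genes that were named by the rule but not called, Glo1, Gpnmb and Wdfy1 took the opposite sign when a library was left out. Glo1 ran from -0.046 (without 87 WT library 14) to 0.086, Gpnmb from -0.11 (without 67 WT library 7) to 0.68, and Wdfy1 from -0.51 to 0.29 (without 87 WT library 14), with 0.088 without 67 WT library 8. The smallest change past the threshold was 0.68 on the log2 scale (Tgm2), and with 3 mice a group smaller differences may be missed.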

Other observations

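Among genes outside the comparisons above, the calcium-handling list had 0 of 20 genes called and a median of -0.11, and the fatty acid use list had 0 of 21 called and 16 above 0 (median 0.15). For comparison, edgeR called 0.189% of all genes, and 49.0% of all genes were above 0. At that share, lists of this size are likely to hold 0 called genes. Mitochondrially encoded transcripts summed to 93650, 144400 and 152300 CPM in 87 WT, against 116700, 123400 and 136800 CPM in 67 WT, so that the male 87 WT library 13 was the lowest of the 6. Genes of muscle regeneration summed to 201, 477 and 327 CPM in 87 WT, against 212, 529 and 694 CPM in 67 WT, and the male library was the lowest of each group. Atrophy and glucocorticoid genes had 0 of 16 called and 11 above 0, with sums of 1323, 1209 and 1208 CPM in 87 WT, against 865, 1155 and 1108 CPM in 67 WT, groups that did not overlap.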
